A study of Drosophila melanogaster with 4 samples.

Results

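The Hippo pathway of the fly wing disc was examined through 10 genes taken by name: yki, hpo, wts, sav, mats, ex, Mer, kibra, ft and ds. They held 13 of the 30950 entries in the count files and are 10 of the 14061 genes named there. All 13 entries had at least 100 reads in every library, as did 6885 of the named genes at their most abundant entry.

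Polyadenylated RNA from wing imaginal discs taken from female larvae of the third instar was sequenced in 4 libraries, 1 per genotype, each from a pool of 300 discs collected in 6 batches. In sd::Gal4>UAS::FH-cortoCD the scalloped driver expressed the Corto chromodomain, tagged with Flag and HA and carrying a nuclear localisation signal, and in sd::Gal4>UAS::RpL12-Myc it expressed Myc-tagged ribosomal protein RPL12. Control discs of sd::Gal4/+ carried the driver alone, and w1118 discs carried neither driver nor transgene. The driver is active where the scalloped gene is used, which is part of the disc, whereas RNA came from whole discs, and the driver and transgene lines had been crossed repeatedly to the w1118 line. In such bulk RNA, fewer cells of a type and less RNA per cell cannot be told apart. With 1 library per genotype, no value below has a replicate check.

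Hippo signalling limits the growth of organs. The kinase Hippo, with Salvador, activates the kinase Warts and its partner Mats, and Warts phosphorylates the co-activator Yorkie and keeps it out of the nucleus. Free Yorkie binds DNA through Scalloped and switches on genes of growth and survival. Expanded, Merlin and Kibra feed into the kinases from the apical cell cortex, and the cadherins Fat and Dachsous, which bind each other between neighbouring cells, act further upstream. In the wing disc, loss of most of these members causes overgrowth, while loss of Yorkie prevents growth.

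Total counts were 43698298 in the library titled FH-cortoCD and 44736060 in that titled RpL12-Myc, against 35219666 for sd::Gal4/+ and 26833482 for w1118. The genotype fields of the public record name both transgenes the other way round from the sample titles, and the titles were used, as alignment totals recomputed from the files match those that the study lists under the title names. RpL12 and corto went against these names at their most abundant entries. RpL12 had 29086 reads in FH-cortoCD-labelled and 24106 in RpL12-Myc-labelled discs (log2 fold changes over sd::Gal4/+ of 0.49 and 0.16). For corto the reads were 6164 and 7836 (-0.58 and -0.29). The study also lists other RpL12 entries as upregulated in its FH-cortoCD library, with larger fold changes than the entry used here. Those entries were not compared between the assays here. The corto entry spans a whole transcript, of which the transgene holds only the chromodomain, and tags were not counted. Both libraries are therefore called by their labels, FH-cortoCD-labelled and RpL12-Myc-labelled, and together the assays, and every direction below rests on these labels. All 12 wing disc marker genes had at least 100 reads in every library, and they summed to 1600 RPM in FH-cortoCD-labelled, 1467 in RpL12-Myc-labelled, 1711 in sd::Gal4/+ and 1851 in w1118 discs, where RPM is reads scaled to a common library size. Of these 12, Antp fell in both assays (-1.72 in FH-cortoCD-labelled and -2.24 in RpL12-Myc-labelled discs) and no other was called. ap was at -0.79 and -0.85, vg at -0.61 and -0.64 and en at 0.55 and 0.51. For 7 of the 12 both assays lay below both controls, as in 35.2% of all genes, and for 3 above, as in 39.7%. Fat body genes (7 of 7 found) summed to 678 RPM in FH-cortoCD-labelled, 971 in RpL12-Myc-labelled, 1443 in sd::Gal4/+ and 64.3 in w1118 discs. Of these 7, 3 were called lower in FH-cortoCD-labelled, 2 in RpL12-Myc-labelled and 7 in w1118 discs. Of 6 salivary gland genes found, Sgs3 was called higher in RpL12-Myc-labelled discs alone (3.56, and 2.33 in FH-cortoCD-labelled and 3.06 in w1118 discs). Of 7 midgut genes, alphaTry and betaTry were called higher in RpL12-Myc-labelled discs (398 and 77 reads, against 0 in sd::Gal4/+). Of 7 blood cell genes found none was called. Their sums were 121 RPM in FH-cortoCD-labelled, 173 in RpL12-Myc-labelled, 104 in sd::Gal4/+ and 131 in w1118 discs. Of 8 muscle genes, Mhc rose in both assays (1.82 in FH-cortoCD-labelled and 1.77 in RpL12-Myc-labelled discs), Mlc2 rose in FH-cortoCD-labelled discs (1.02, and 0.88 in RpL12-Myc-labelled discs) and Tm1, which had the most reads of them, fell in both (-1.17 and -1.22), while the other 5 had positive values without a call. Of 6 neuronal genes only elav had over 20 reads in any library, at -0.97 in FH-cortoCD-labelled and -1.07 in RpL12-Myc-labelled discs, called in the RpL12-Myc-labelled library. Of 4 tracheal genes found none was called, with verm at 0.52 and 0.57, serp at 0.32 and 0.46, trh at -0.19 and -0.18 and btl at -0.13 and 0.026 in FH-cortoCD-labelled and RpL12-Myc-labelled discs. The part of these markers in the values of the Hippo pathway genes was not tested.

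Each gene is represented by its most abundant entry. Levels between genes are compared as RPKM, the RPM after TMM scaling divided by exon length in kilobases. A fold change is the log2 ratio of TMM-scaled counts, and its 95% interval covers counting error only, with both reads of a pair taken as 1 observation. A gene was called when the edgeR binomial test gave an adjusted p below 4e-18 and the log2 fold change was above 1 or below -1. The study chose this p cutoff on its comparison of w1118 with sd::Gal4/+, so that few transcripts would differ there. The small number of calls in w1118 discs was thus partly fixed in advance. The test compares the reads of single libraries, not genotypes, and holds no measure of the variation between pools of 1 genotype. Unlike the intervals, it takes both reads of a pair as separate observations, which makes its p-values smaller.

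ex was the most abundant member per kilobase in all 4 libraries, at 89.6 RPKM in FH-cortoCD-labelled, 83.1 in RpL12-Myc-labelled, 90.8 in sd::Gal4/+ and 93.5 in w1118 discs, and ds came next in each. kibra was last in each, at 9.15 RPKM in FH-cortoCD-labelled, 7.92 in RpL12-Myc-labelled, 8.95 in sd::Gal4/+ and 9.57 in w1118 discs, below wts and then sav. The place of ft differed most between assays and controls, being 3rd in both assays and 6th in both controls, where yki, mats and hpo stood above it. Some neighbours in the order were close, such as hpo and mats in RpL12-Myc-labelled discs (42.1 and 41.9 RPKM) and yki and mats in sd::Gal4/+ discs (52.9 and 51.7 RPKM).

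**Figure D1:**
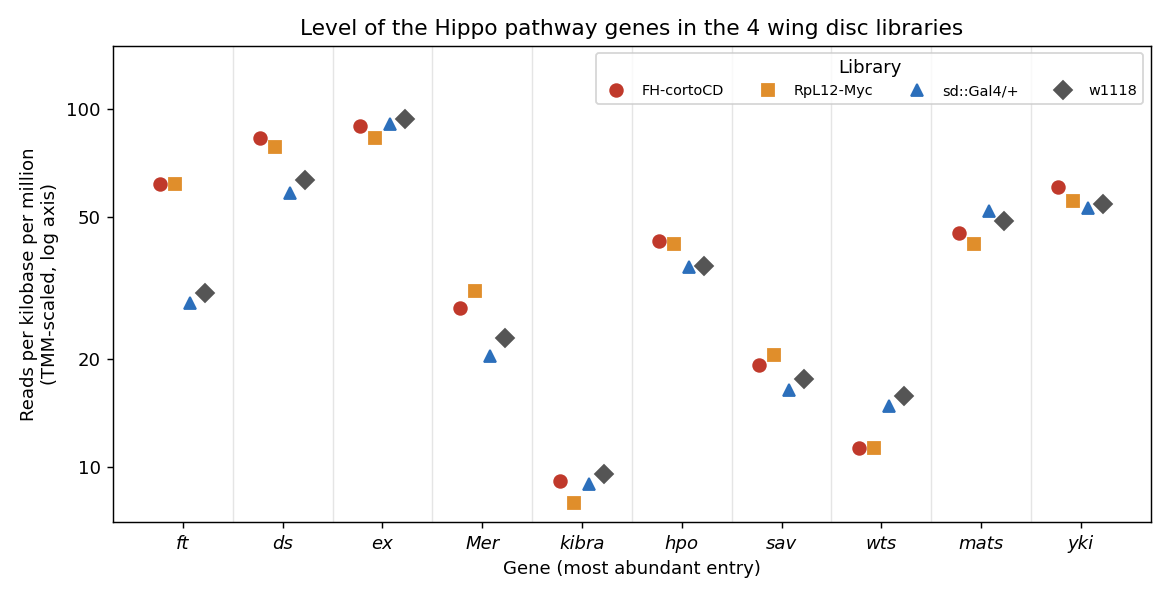
Level of each Hippo pathway gene (RPKM after TMM scaling, log axis) in the 4 libraries, 1 point per library. The points of ft lie at 61.8 and 61.5 in the assays against 28.7 and 30.5 in the controls, while those of ex stay between 83.1 and 93.5.

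Of the cadherins, ft rose in both assays and was the 1 member called, where 1.98% of the 6885 genes were called higher in FH-cortoCD-labelled and 0.871% in RpL12-Myc-labelled discs. ds was higher in both assays without reaching the limit. ft (FBgn0001075, receptor of the pair) lies on the minus strand of 2L, from 4198402 to 4217852 in dm3, with an entry of 16186 exon bases for a protein of 5147 residues. It had 42317 reads in FH-cortoCD-labelled and 43774 in RpL12-Myc-labelled discs, against 16531 in sd::Gal4/+ and 13827 in w1118 discs. Assays and controls did not overlap, and each pair was close within itself, with 1001 and 996 RPM in the assays against 465 and 494 in the controls. The log2 fold change over sd::Gal4/+ was 1.11 (95% interval 1.07 to 1.14) in FH-cortoCD-labelled and 1.10 (1.06 to 1.13) in RpL12-Myc-labelled discs, or 2.15 and 2.14 fold, and it was 0.086 (0.040 to 0.13) in w1118 discs. Of the 6885 genes, 1.39% and 0.625% had a larger log2 fold change in FH-cortoCD-labelled and in RpL12-Myc-labelled discs. Against w1118, ft was called in both assays too, at 1.02 and 1.01.

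ds (FBgn0284247, 2L from 640021 to 714968, minus strand), the ligand of Fat, has an entry of 12404 exon bases for a protein of 3556 residues. It had 43610 reads in FH-cortoCD-labelled and 42564 in RpL12-Myc-labelled discs, against 25657 in sd::Gal4/+ and 21910 in w1118 discs. Both assays were above both controls, with log2 fold changes of 0.51 (0.48 to 0.55) in FH-cortoCD-labelled and 0.42 (0.39 to 0.45) in RpL12-Myc-labelled discs, and 0.12 in w1118 discs. The level of ft over that of ds, a ratio within each library, was 0.744 in FH-cortoCD-labelled and 0.788 in RpL12-Myc-labelled discs, against 0.494 in sd::Gal4/+ and 0.484 in w1118 discs. The level of ft was thus nearer to that of ds in both assays than in either control.

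Long messengers as a class had positive values in the assays. Entries of at least 10 kb belonged to 39 genes, whose median log2 fold changes were 0.66 in FH-cortoCD-labelled, 0.70 in RpL12-Myc-labelled and 0.12 in w1118 discs. In all, 36 of the 39 had values above 0 and 12 (30.8%) were called higher in FH-cortoCD-labelled discs, and 35 had values above 0 and 10 (25.6%) were called higher in RpL12-Myc-labelled discs. In w1118 discs 32 of the 39 had values above 0 and 0 were called. Over all 6885 genes, 50.9% had values above 0 and 1.98% were called higher in FH-cortoCD-labelled discs, 53.6% and 0.871% in RpL12-Myc-labelled discs, and 46.5% and 0.0145% in w1118 discs. Among the 39 genes with long entries, ft ranked 6th in FH-cortoCD-labelled and 8th in RpL12-Myc-labelled discs, and ds ranked 27th and 30th. With a loess correction for length, ft was at 0.71 in FH-cortoCD-labelled and 0.73 in RpL12-Myc-labelled discs and was called in neither, and ds was at 0.24 and 0.16.

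**Figure D2:**
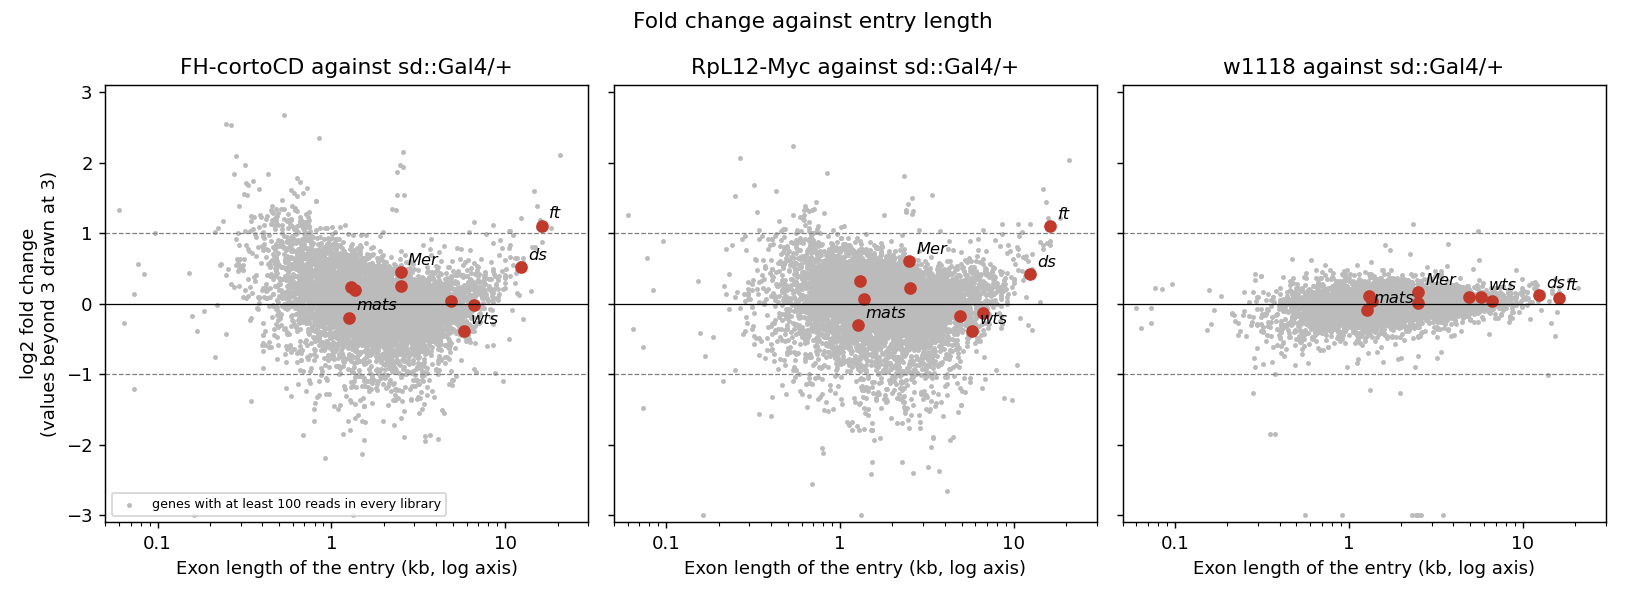
log2 fold change over sd::Gal4/+ (y) by exon length of the entry (x, kb, log axis) for 6885 genes in grey and the 10 Hippo pathway genes in red, 5 of them named, with a panel for each other library. Entries of 10 kb or more, ft and ds among them, have medians of 0.66 and 0.70 in the assays and 0.12 in w1118.

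The apical members differed among themselves. Mer was higher in both assays, ex lay just below both controls in both, and kibra lay below both controls in RpL12-Myc-labelled discs alone. Mer (FBgn0086384, X from 19584627 to 19587531, minus strand), the fly homologue of the human tumour suppressor NF2, had 2935 reads in FH-cortoCD-labelled and 3402 in RpL12-Myc-labelled discs, against 1817 in sd::Gal4/+ and 1608 in w1118 discs. Both assays lay above both controls after scaling. The log2 fold changes were 0.44 (0.32 to 0.56) in FH-cortoCD-labelled and 0.60 (0.48 to 0.72) in RpL12-Myc-labelled discs, neither of them called. w1118 differed from sd::Gal4/+ by 0.17 (0.030 to 0.31), the widest gap between the controls among the 10 members. Mer was above the upper quartile of genes with entries of 2 to 5 kb, which was 0.074 in FH-cortoCD-labelled and 0.16 in RpL12-Myc-labelled discs, and a correction for length left it at 0.54 and 0.68.

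ex (FBgn0004583, 2L from 431253 to 448701, plus strand) encodes the FERM protein Expanded and is also a target of Yorkie. It had 25161 reads in FH-cortoCD-labelled and 24287 in RpL12-Myc-labelled discs, against 21441 in sd::Gal4/+ and 17400 in w1118 discs. Scaled, both assays lay just below both controls, with log2 fold changes of -0.020 (-0.057 to 0.017) in FH-cortoCD-labelled and -0.13 (-0.16 to -0.090) in RpL12-Myc-labelled discs. Scaling by total counts gave -0.080 and -0.17. Unscaled counts, which keep the difference in depth between libraries, gave 0.23 and 0.18. The current annotation places 448 bases of ex exons on those of crq on the other strand, and the counting was not stated to use strand, so reads there cannot be assigned.

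kibra (FBgn0262127, 3R from 10524252 to 10549978, minus strand), the WW-domain partner of Expanded and Merlin, had 1896 reads in FH-cortoCD-labelled and 1708 in RpL12-Myc-labelled discs, against 1560 in sd::Gal4/+ and 1313 in w1118 discs. It was the 1 member whose assays did not both lie on the same side of the controls. The log2 fold changes were 0.030 (-0.11 to 0.17) in FH-cortoCD-labelled, -0.18 (-0.32 to -0.034) in RpL12-Myc-labelled and 0.095 in w1118 discs.

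In the kinase core, wts and mats were lower and hpo and sav higher in both assays than in both controls, with none called. wts (FBgn0011739, 3R from 26615379 to 26632341, minus strand), the kinase that phosphorylates Yorkie, had 2751 reads in FH-cortoCD-labelled and 2867 in RpL12-Myc-labelled discs, against 3034 in sd::Gal4/+ and 2540 in w1118 discs. After scaling these were 65.1 and 65.2 RPM in the assays, below 85.4 in sd::Gal4/+ and 90.8 in w1118. The log2 fold change was -0.39 (-0.50 to -0.29) in FH-cortoCD-labelled, -0.39 (-0.49 to -0.28) in RpL12-Myc-labelled and 0.088 in w1118 discs, the lowest of the members in each assay. Genes with entries of 5 to 10 kb, the length class of wts, had lower quartiles of -0.13 in FH-cortoCD-labelled and -0.14 in RpL12-Myc-labelled discs, and a correction for length left wts at -0.39 and -0.41.

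mats (FBgn0038965, 3R from 18246877 to 18248568, plus strand), the Mob protein that activates Warts, had 2412 reads in FH-cortoCD-labelled and 2333 in RpL12-Myc-labelled discs, against 2325 in sd::Gal4/+ and 1720 in w1118 discs. Its log2 fold changes were -0.20 (-0.31 to -0.080) in FH-cortoCD-labelled and -0.30 (-0.42 to -0.18) in RpL12-Myc-labelled discs. Scaling by total counts gave -0.26 and -0.34. Unscaled counts, which keep the difference in depth between libraries, gave 0.053 and 0.0050. Against w1118 the value in FH-cortoCD-labelled discs was -0.11 (-0.23 to 0.021), within counting error. w1118 was at -0.091, and mats was the 1 member lower in w1118 than in sd::Gal4/+.

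hpo (FBgn0261456, 2R from 15381802 to 15384372, minus strand), the kinase that activates Warts, had 4551 reads in FH-cortoCD-labelled and 4648 in RpL12-Myc-labelled discs, against 3231 in sd::Gal4/+ and 2560 in w1118 discs. Its log2 fold changes were 0.24 (0.15 to 0.34) in FH-cortoCD-labelled and 0.22 (0.12 to 0.31) in RpL12-Myc-labelled discs, and the controls differed by 0.0081. The level of hpo over that of wts was 3.80 in FH-cortoCD-labelled and 3.72 in RpL12-Myc-labelled discs, against 2.44 in sd::Gal4/+ and 2.31 in w1118 discs, so the kinases stood further apart in both assays than in either control.

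sav (FBgn0053193, 3R from 18884331 to 18886991, minus strand) encodes the WW-domain scaffold of Hippo. Its 3 entries are a 3′ stretch of 1302 bases and a pair of overlapping 5′ stretches, of 898 and 883 bases, with the same counts. The 3′ stretch had 1059 reads in FH-cortoCD-labelled and 1174 in RpL12-Myc-labelled discs, against 758 in sd::Gal4/+ and 643 in w1118 discs, and log2 fold changes of 0.23 (0.040 to 0.43) in FH-cortoCD-labelled and 0.32 (0.14 to 0.51) in RpL12-Myc-labelled discs. Against w1118 the value in FH-cortoCD-labelled discs was 0.12 (-0.079 to 0.33), within counting error. Each 5′ stretch had 1020 reads in FH-cortoCD-labelled and 1065 in RpL12-Myc-labelled discs, against 610 in sd::Gal4/+ and 535 in w1118 discs. The log2 fold changes there were 0.49 (0.28 to 0.70) in FH-cortoCD-labelled and 0.50 (0.29 to 0.70) in RpL12-Myc-labelled discs. Both ends of sav were thus higher in the assays, and the 5′ end had the larger log2 value, by 0.26 in FH-cortoCD-labelled, 0.17 in RpL12-Myc-labelled and 0.048 in w1118 discs.

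A difference between ends was common in these libraries. In 1544 genes with separate 5′ and 3′ entries of at least 100 reads, the 5′ entry had the larger log2 fold change in 78.8% for FH-cortoCD-labelled, 73.3% for RpL12-Myc-labelled and 55.2% for w1118 discs, and the median excess was 0.38, 0.37 and 0.031. The part of this shift in the values of sav, ft and ds was not tested. Coverage of the members was near complete in every library, with at most 2.45% of the bases of a most abundant entry lacking reads (wts in FH-cortoCD-labelled discs).

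yki (FBgn0034970, 2R from 19953498 to 19956008, minus strand), the co-activator at the end of the pathway, had 3494 reads in FH-cortoCD-labelled and 3328 in RpL12-Myc-labelled discs, against 2575 in sd::Gal4/+ and 2072 in w1118 discs, in the 1369 bases that both transcripts counted share. The scaled values of both assays were above both controls, but in RpL12-Myc-labelled discs by little: the log2 fold changes were 0.19 (0.084 to 0.29) in FH-cortoCD-labelled, 0.063 (-0.043 to 0.17) in RpL12-Myc-labelled and 0.030 in w1118 discs. An exon of 156 bases (2R from 19954084 to 19954239), used by 1 of the 2 transcripts, adds 52 residues to the protein. Reads in it made up 6.50% (Wilson 95% interval 5.49% to 7.74%) of those of both entries in FH-cortoCD-labelled and 6.41% (5.36% to 7.65%) in RpL12-Myc-labelled discs, against 7.51% (6.20% to 8.97%) in sd::Gal4/+ and 7.91% (6.47% to 9.64%) in w1118 discs. The share was lower in both assays than in both controls, the intervals of all 4 libraries overlapped, and the difference was not tested.

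**Figure D3:**
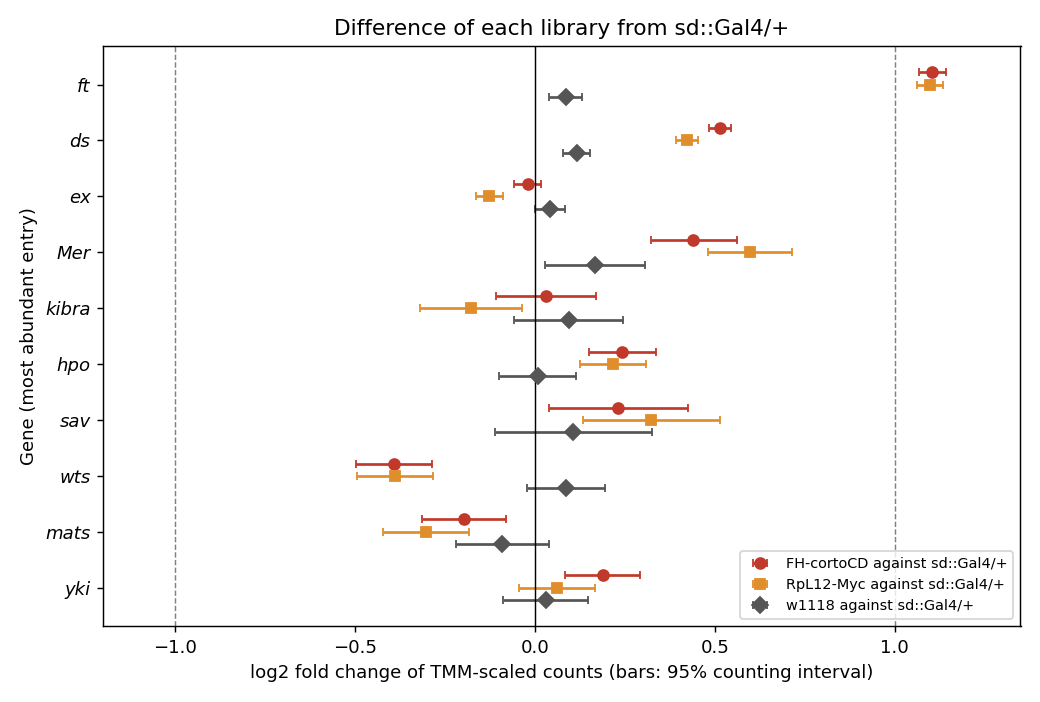
log2 fold change of TMM-scaled counts over sd::Gal4/+ for each Hippo pathway gene, with 95% counting intervals, for both assays and w1118, and dashed lines at the limits of a call. ft alone lies past the limit, at 1.11 and 1.10, and wts lies lowest, at -0.39 in each assay.

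Among the 10 members, 1 was called higher in FH-cortoCD-labelled discs (1.98% of the 6885 genes) and 0 lower (2.05%), and 1 was called higher in RpL12-Myc-labelled discs (0.871%) and 0 lower (2.86%), ft each time. By a log2 fold change past 1 alone, ft was again the 1 member higher (2.0% of genes in FH-cortoCD-labelled and 0.93% in RpL12-Myc-labelled discs) and 0 were lower (2.25% and 3.09%). In w1118 against sd::Gal4/+, 0 were called higher (0.0145%) or lower (0.203%), and 0 were past the limit alone (0.029% and 0.203%). Between the assays, FH-cortoCD against RpL12-Myc, 0 were called higher (0.145%) or lower (0.0%), and 0 were past the limit alone (0.16% and 0.0145%).

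Counting differences of any size, 7 of 10 members were higher in FH-cortoCD-labelled discs (50.9% of genes) and 3 lower (49.1%), and 6 were higher in RpL12-Myc-labelled discs (53.6%) and 4 lower (46.4%). In w1118 discs 9 were higher (46.5%) and 1 lower (53.5%). Between the assays 7 were higher in FH-cortoCD-labelled discs (45.4%) and 3 lower (54.6%), with values between -0.16 (Mer) and 0.21 (kibra) and ft at 0.0073. Members' medians were 0.21 in FH-cortoCD-labelled, 0.14 in RpL12-Myc-labelled and 0.087 in w1118 discs, beside 0.0073, 0.034 and -0.010 over the 6885 genes, with sd::Gal4/+ shared by all of these comparisons. For 6 members (ft, ds, Mer, hpo, sav and yki) both assays lay above both controls, as they did in 39.7% of genes, and for 3 (ex, wts and mats) below, as in 35.2% of genes.

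Around the members, 65 genes of the pathway were listed in 5 groups by role, of which 62 were matched and 58 had at least 100 reads in every library. In FH-cortoCD-labelled discs 1 was called higher (against 1.98% of all 6885 genes) and 2 lower (2.05%), in RpL12-Myc-labelled discs 0 higher (0.871%) and 2 lower (2.86%), and in w1118 discs 0 either way (0.0145% and 0.203%). The medians of the 58 genes were -0.12 in FH-cortoCD-labelled, -0.068 in RpL12-Myc-labelled and 0.0026 in w1118 discs.

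Of 7 genes around the cadherins none was called, and for 5 both assays lay below both controls, as in 35.2% of all genes. fj, the Golgi kinase that phosphorylates Fat and Dachsous, had 8104 reads in FH-cortoCD-labelled and 8284 in RpL12-Myc-labelled discs, against 9561 in sd::Gal4/+ and 8002 in w1118 discs, with log2 fold changes of -0.49 in FH-cortoCD-labelled and -0.51 in RpL12-Myc-labelled discs. dco, for a casein kinase that phosphorylates Fat, was at -0.70 in FH-cortoCD-labelled and -0.61 in RpL12-Myc-labelled discs, and lft, for a cytoplasmic partner of both cadherins, at -0.39 in FH-cortoCD-labelled and -0.40 in RpL12-Myc-labelled discs. Dlish, for a protein that binds Fat and the myosin Dachs, was at -0.14 in FH-cortoCD-labelled and -0.24 in RpL12-Myc-labelled discs. dachs, for the myosin itself, was at 0.18 in FH-cortoCD-labelled and 0.16 in RpL12-Myc-labelled discs. It was the 1 gene of the 7 above sd::Gal4/+ in each assay, and the other 6 were lower. Over all genes 49.1% were lower in FH-cortoCD-labelled and 46.4% in RpL12-Myc-labelled discs. Medians of the 7 were -0.14 in FH-cortoCD-labelled and -0.24 in RpL12-Myc-labelled discs.

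Of 10 apical and polarity genes with enough reads none was called, and the medians were 0.094 in FH-cortoCD-labelled and 0.17 in RpL12-Myc-labelled discs. sdt, for the scaffold of Crumbs, was at 0.52 in FH-cortoCD-labelled and 0.65 in RpL12-Myc-labelled discs. l(2)gl, for a basolateral tumour suppressor, was at -0.63 in FH-cortoCD-labelled and -0.75 in RpL12-Myc-labelled discs. dlg1, of the same module, was at -0.73 in FH-cortoCD-labelled and -0.83 in RpL12-Myc-labelled discs, and par-6, of the aPKC complex, at -0.62 in each, so the group held values on both sides of 0.

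Of 16 regulators of the kinases with enough reads, Zyx fell in both assays and no other was called. Zyx, which encodes the LIM protein Zyxin, an opponent of Warts, had 1561 reads in FH-cortoCD-labelled and 1261 in RpL12-Myc-labelled discs, against 2978 in sd::Gal4/+ and 2391 in w1118 discs. The log2 fold changes were -1.18 in FH-cortoCD-labelled and -1.55 in RpL12-Myc-labelled discs, and its 6 entries with enough reads lay between -1.64 and -1.18 in FH-cortoCD-labelled and between -1.95 and -1.55 in RpL12-Myc-labelled discs. Subunits of the phosphatase complex that acts on Hippo varied. mts, the catalytic subunit, was at -0.66 in FH-cortoCD-labelled and -0.57 in RpL12-Myc-labelled discs, Cka at -0.50 in FH-cortoCD-labelled and -0.49 in RpL12-Myc-labelled discs and Mob4 at -0.36 in FH-cortoCD-labelled and -0.40 in RpL12-Myc-labelled discs. Of other listed parts of the complex, Fgop2 was at -0.13 in FH-cortoCD-labelled and -0.067 in RpL12-Myc-labelled discs and Strip at 0.038 in FH-cortoCD-labelled and 0.10 in RpL12-Myc-labelled discs.

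Of 15 nuclear partners and anchors of Yorkie, hth fell in both assays and mask rose in FH-cortoCD-labelled discs. hth, for the homeodomain protein Homothorax, with which Yorkie acts in eye disc progenitors, had 4826 reads in FH-cortoCD-labelled and 3987 in RpL12-Myc-labelled discs, against 10441 in sd::Gal4/+ and 8089 in w1118 discs, with log2 fold changes of -1.36 in FH-cortoCD-labelled and -1.70 in RpL12-Myc-labelled discs. Its 10 entries with enough reads ranged from -1.36 to 0.25 in FH-cortoCD-labelled and from -1.70 to 0.18 in RpL12-Myc-labelled discs. 3 of them, of 2266, 2096 and 1602 bases, lay below -1 in both assays, and that of 1267 bases was at -0.93 in FH-cortoCD-labelled and -1.19 in RpL12-Myc-labelled discs. mask, for an ankyrin repeat co-factor of Yorkie, had 32566 reads in FH-cortoCD-labelled and 32498 in RpL12-Myc-labelled discs, against 13467 in sd::Gal4/+ and 11172 in w1118 discs, in an entry of 10726 bases.

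The log2 fold changes of mask were 1.02 in FH-cortoCD-labelled and 0.96 in RpL12-Myc-labelled discs. Its 3′ entry of 2273 bases had 3031 reads in FH-cortoCD-labelled and 2596 in RpL12-Myc-labelled discs, against 4766 in sd::Gal4/+ and 3272 in w1118 discs, or -0.90 in FH-cortoCD-labelled and -1.18 in RpL12-Myc-labelled discs. A value for mask thus depended on which stretch of the gene was read. 14-3-3zeta, which holds phosphorylated Yorkie in the cytoplasm, was at -0.80 in each assay at its most abundant entry. The study lists a different entry of 14-3-3zeta, with fewer reads, as upregulated in its FH-cortoCD library, so its direction too depended on the entry. tsh, for a partner of Homothorax, was at -0.72 in FH-cortoCD-labelled and -0.64 in RpL12-Myc-labelled discs. sd, the DNA-binding partner, had 10115 reads in FH-cortoCD-labelled and 9896 in RpL12-Myc-labelled discs, against 10094 in sd::Gal4/+ and 9184 in w1118 discs. Its log2 fold changes were -0.25 in FH-cortoCD-labelled, -0.34 in RpL12-Myc-labelled and 0.21 in w1118 discs. It is also the gene of the scalloped driver, which all libraries but w1118 carried, and the part of the driver in these values was not tested.

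Of 10 described Yorkie targets with enough reads none was called, and the medians were -0.16 in FH-cortoCD-labelled and -0.21 in RpL12-Myc-labelled discs. E2f1, a cell cycle transcription factor, was at -0.76 in FH-cortoCD-labelled and -0.79 in RpL12-Myc-labelled discs. wg, for the morphogen Wingless, was at -0.62 in FH-cortoCD-labelled and -0.44 in RpL12-Myc-labelled discs, and dlp, for a glypican, at -0.48 in FH-cortoCD-labelled and -0.42 in RpL12-Myc-labelled discs. CycE, for cyclin E, was at 0.071 in FH-cortoCD-labelled and 0.47 in RpL12-Myc-labelled discs, so targets had values of both signs. Diap1, an inhibitor of cell death widely used as a readout of Yorkie, had 8285 reads in FH-cortoCD-labelled and 8583 in RpL12-Myc-labelled discs, against 7725 in sd::Gal4/+ and 6573 in w1118 discs, with log2 fold changes of -0.15 in FH-cortoCD-labelled and -0.16 in RpL12-Myc-labelled discs.

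**Figure D4:**
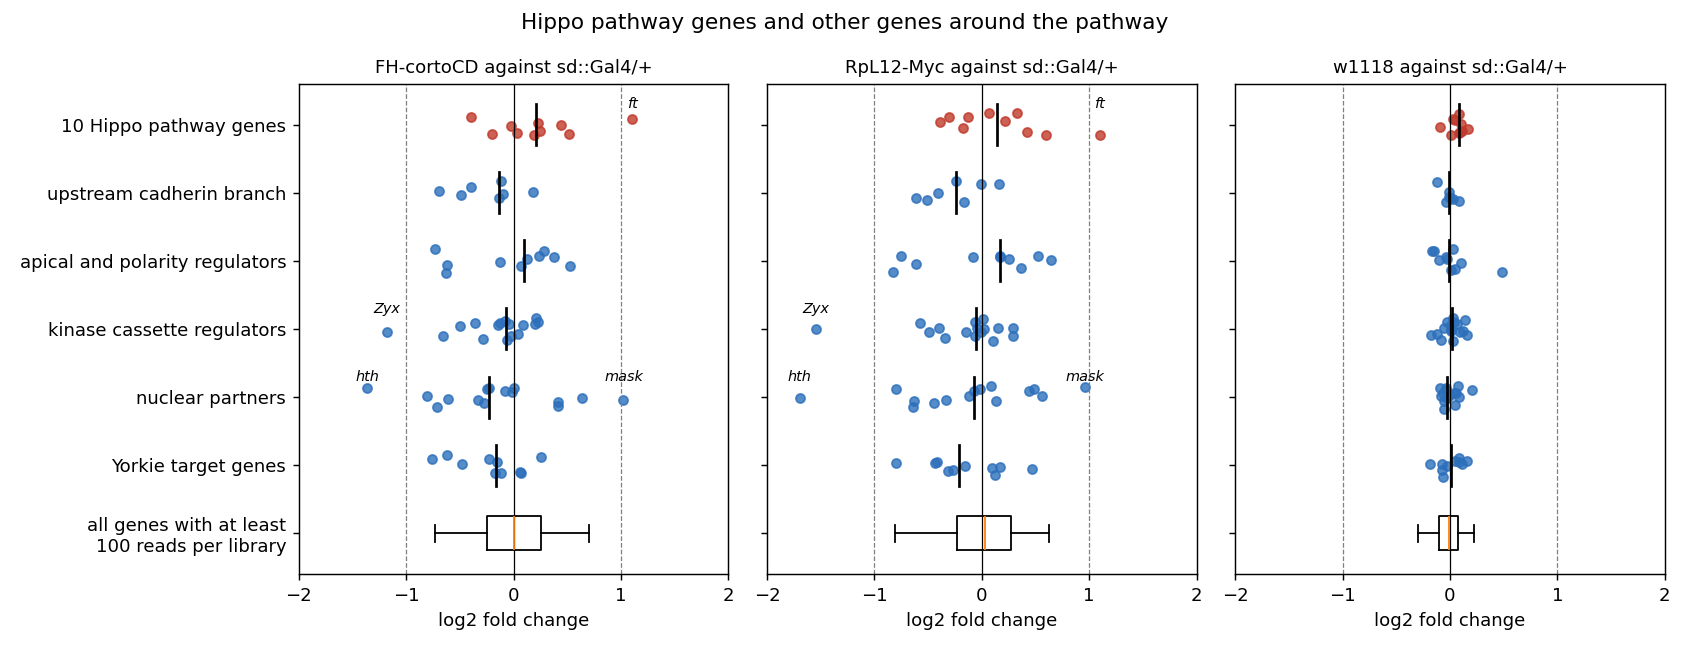
log2 fold change over sd::Gal4/+ of the 10 Hippo pathway genes (red) and of 5 groups of genes around the pathway (blue), with the median of each as a black bar and the 6885 genes as a box with whiskers at the 5th and 95th percentiles. ft lies above 1 in both assays, mask at 1.02 and 0.96, Zyx and hth below -1 in both, and none of the genes drawn reaches either limit in w1118.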

How the data were processed

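Per the methods of the study, reads were filtered on quality and aligned to dm3 with Bowtie, reads with several matches were dropped, and overlaps with FlyBase exons were counted. What the authors deposited are raw whole-number counts per annotation entry, in 1 file per read of the pair. The deposited files also hold each count as a fraction of the alignments on transcripts, used here only to recompute the number of alignments, and the number of bases without reads. Overlapping entries share reads, so counts summed to 1.26 times the alignments.

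Both files of a library were added. Entries were named by transcript ID from the Ensembl BDGP6 annotation, which also gave protein lengths and exon overlaps and no coordinates. This named 28961 of 30950 entries, with 94.2% of the counts. That annotation also overlaps exons of hpo with Rep and of ds with a noncoding RNA on the other strand, and of sav with Ctns on the same strand. TMM library sizes from all 4 libraries and the binomial test came from edgeR 4.0.16 in R 4.3.3, with Benjamini-Hochberg adjustment over 30950 entries. The script was tested on simulated data. Intervals of fold changes are exact binomial (Clopper-Pearson) and those of the yki exon are Wilson intervals, both on the mean of both files. Reads without molecular identifiers are not independent molecules, so intervals cover counting error only.

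All members were named. From the other pathway lists came every gene called in either assay, and up to 4 genes per list with the largest mean absolute log2 fold change over both assays and at least 100 reads in every library. sd, Diap1, dachs, Strip, Fgop2 and the marker genes of other tissues and of the disc were added after their values were seen. The members and lists were chosen with earlier results of these data known. Alternatives were no scaling, DESeq2 1.42.0 size factors, total counts, an adjusted p of 0.05, a log2 limit of 0.5, a minimum of 10 reads per library, first or second reads alone, w1118 as the control, summed entries, the longest entry, and a loess correction for length. The genes scrib, mir-ban and upd2 of the lists were not analysed here.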

Additional observations from a re-analysis of the deposited data

Results flagged for a closer look

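kibra had values of opposite sign in the assays, with log2 fold changes over sd::Gal4/+ of 0.030 in FH-cortoCD-labelled and -0.18 in RpL12-Myc-labelled discs. FH-cortoCD against RpL12-Myc gave 0.21 for kibra, with a counting interval of 0.072 to 0.34, and kibra was not called. The binomial test of edgeR compares the reads of 1 library with those of 1 other, and the difference was not tested across replicates.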

How the results depend on the processing

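No paired analysis was possible because each genotype has 1 library, and for the same reason none could be left out. ft was called in both assays under every alternative run except the loess correction for length, which gave 0.71 in FH-cortoCD-labelled and 0.73 in RpL12-Myc-labelled discs and left 0 members called, and 0 past the fold, in each. A log2 limit of 0.5 gave 2 called, and 2 past the fold, in each (ft with ds in FH-cortoCD-labelled, ft with Mer in RpL12-Myc-labelled discs). The share of all genes called at that limit was not computed. In FH-cortoCD-labelled discs 9.96% of genes lay above ds. In RpL12-Myc-labelled discs 5.82% lay above Mer and 13.1% above ds, which was itself below the limit. Leaving out the scaling keeps the difference in depth, which shifts every gene by 0.25 in FH-cortoCD-labelled, 0.31 in RpL12-Myc-labelled and -0.34 in w1118 discs. It reversed mats (0.053) and ex (0.23) in FH-cortoCD-labelled discs, mats (0.0050), ex (0.18) and kibra (0.13) in RpL12-Myc-labelled discs, hpo (-0.030) and ft (-0.049) between the assays, and in w1118 discs yki (-0.31), hpo (-0.34), wts (-0.26), sav (-0.24), ex (-0.30), Mer (-0.18), kibra (-0.25), ft (-0.26) and ds (-0.23). The other reversals were of values near 0: total counts put kibra at -0.030 in FH-cortoCD-labelled discs and ft at -0.015 between the assays, w1118 as the control put kibra at -0.065 in FH-cortoCD-labelled discs, the loess correction put wts at 0.019 and ft at -0.012 between the assays, first reads put wts at 0.0048 between the assays, and second reads put hpo at -0.015 in w1118 discs. The cause of the reversals near 0 was not tested. Of 460 alternative values of members, 433 kept their direction and side of the limit. Many of these could not have changed direction, so the share is not a measure of robustness. The other adjusted p cutoff, the lower minimum of reads and the lower log2 limit leave each log2 fold change as it was. The longest entry was also the most abundant entry of every member. Depth limits the yki exon most, with 178 to 243 reads.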
